A study of Mus musculus with 5 samples.

Results

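The 10 genes described here mark epithelial cells: the adhesion gene Epcam, the claudins Cldn3, Cldn4 and Cldn7, the keratins Krt7, Krt8, Krt14, Krt18 and Krt19, and the secreted protein gene Wfdc2. They were chosen by symbol, and all 10 were found in the feature list of each library, among 32285 features in the T cell libraries and 54987 in the whole-tumor libraries. They were read in 5 droplet single-cell RNA sequencing libraries of tumors of 4T1, a mouse triple-negative mammary cancer line tagged with Thy1.1 (CD90.1) and implanted into mammary fat pads of BALB/c animals, aged 12 weeks per the labels. Doxorubicin (DOX), a DNA-damaging drug, was given to mice of 4 libraries at 5 mg/kg in 3 doses, 3 days apart, and mice of the control library received saline. Tumors labelled sensitive or resistant after DOX gave 2 T cell libraries, each a pool of several tumors per the methods, in which cancer cells and non-T cells had been depleted on magnetic columns. Whole tumors labelled control, sensitive and resistant gave 3 further libraries. The source fields of all 3 whole-tumor libraries, also those titled resistant and control, name sensitive tumors, so these libraries are called by their label. In the one titled control 26 of 488 cells passed the T cell gate, in the one titled sensitive 0 of 269 (which allows a share of up to 1.12%) and in the one titled resistant 8 of 263.

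Each group had 1 library, so no difference between libraries has a replicate check and no p-value is given. Levels are in CPM: the unique molecular identifiers (UMIs, one per captured transcript molecule) of a gene, summed over the cells of a class in a library and scaled to a common sum of all UMIs. Because the assay reads only the 3' end, they are not scaled by gene length, and a level of one gene against another can also carry a difference in capture. Brackets hold 95% intervals that cover counting error only, and depth sets their width. Whole-tumor and T cell libraries were made with other software versions and feature lists, so no ratio was taken between them.

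Epithelial cells are held together by tight junctions, in which claudins span the membrane and seal the space between neighbors, and by adhesion proteins such as Epcam. Inside, keratins pair a type I with a type II protein to build filaments: Krt8 and Krt7 are type II, and Krt18, Krt19 and Krt14 are type I. Krt8 and Krt18 are the pair of simple and luminal epithelium, while Krt14 is best known from basal and myoepithelial cells of the mammary gland. Wfdc2 encodes a small secreted protein with the fold of protease inhibitors. Fibroblasts and T cells of healthy tissue are not known for these genes.

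Cancer cells were defined as kept barcodes with a UMI of at least 2 of Epcam, Krt8 and Krt18 and no UMI of Ptprc, the CD45 gene of white blood cells. The gate held 113 of 3448 kept cells in sensitive and 132 of 3091 in resistant T cell libraries, with median depths of 21334 and 21320 UMIs. It held 28 of 488 cells in the control, 6 of 269 in the sensitive and 43 of 263 in the resistant whole-tumor library. Fibroblasts (at least 3 of 7 collagen and stromal genes at 2 or more UMIs, no Ptprc, outside the cancer cell gate) numbered 784 and 565 in the sensitive and resistant T cell libraries, and 7, 0 and 3 in the control, sensitive and resistant whole tumors. No cancer cell barcode was shared by the 2 T cell libraries, which shared 31 barcodes in all.

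The label of the cells was checked against the 7 genes outside the gate. In the sensitive T cell library, 9 of the 113 gated cells also passed the fibroblast gate, and in these 9 cells Wfdc2, Cldn4 and Cldn7 were all at 0 UMIs. They had a median of 56039 UMIs and held 84 UMIs of Krt8, 59 of Krt7, 41 of Krt18, 29 of Cldn3, 25 of Krt19, 6 of Krt14 and 5 of Epcam. The mesothelial gene Wt1, a transcription factor, had 64 UMIs in 8 of the 9 cells, against 1 UMI in all other sensitive cancer cells. Msln, which codes for mesothelin, had 28 UMIs in 4 of the 9 (60.8 CPM) and does not set them apart. The other sensitive cancer cells held 189 Msln UMIs, and gated cells of the resistant T cell library were at 80.7 CPM. The Wt1 UMIs and the absence of Wfdc2, Cldn4 and Cldn7 go against calling the 9 cells cancer cells. For that reason the ratios between the T cell libraries are given with and without cells that pass both gates. The resistant T cell library had 1 such cell and the resistant whole tumor 1, with 2 and 6 UMIs of the 10 genes. In the remaining cancer cells of the T cell libraries, 99 of 104 sensitive and 128 of 131 resistant cells had a Wfdc2 UMI.

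The genes lie on 5 mouse chromosomes (build GRCm38, GENCODE vM21 gene models, all protein coding). Cldn4 (chromosome 5, 134945119 to 134946934, minus strand) and Cldn3 (134986214 to 134987472, plus strand) are neighbors, 39279 bases apart. Krt7 (101411043 to 101430313, plus), Krt8 (101996698 to 102004482, minus) and Krt18 (102028180 to 102032027, plus) lie on chromosome 15, with 23697 bases between Krt8 and Krt18. Chromosome 11 carries Krt19 (100140810 to 100148665, minus), Krt14 (100203162 to 100207548, minus) and Cldn7 (69964779 to 69967885, plus). Epcam is on chromosome 17 (87635979 to 87651129, plus) and Wfdc2 on chromosome 2 (164562413 to 164568510, plus).

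The 250 bases before the RefSeq start (GRCm38.p6) are shown for Epcam, the adhesion gene of the gate, and for the genomic neighbors Cldn3 and Cldn4 and Krt8 and Krt18, so that the starts of neighbors can be compared. Capitals mark CACCTG, or CAGGTG where it lies on the other strand, an E-box form that the ZEB and SNAI repressors of epithelial genes are known to bind. The windows are chr17:87635729-87635978 (plus strand) for Epcam, chr5:134985964-134986213 (plus) for Cldn3, chr5:134946935-134947184 (minus) for Cldn4, chr15:102004343-102004592 (minus) for Krt8 and chr15:102027966-102028215 (plus) for Krt18.
Epcam: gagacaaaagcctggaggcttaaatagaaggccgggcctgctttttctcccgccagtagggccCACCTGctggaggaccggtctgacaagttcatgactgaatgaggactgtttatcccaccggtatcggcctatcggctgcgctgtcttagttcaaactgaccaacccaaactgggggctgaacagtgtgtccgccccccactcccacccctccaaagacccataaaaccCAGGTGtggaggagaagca
Cldn3: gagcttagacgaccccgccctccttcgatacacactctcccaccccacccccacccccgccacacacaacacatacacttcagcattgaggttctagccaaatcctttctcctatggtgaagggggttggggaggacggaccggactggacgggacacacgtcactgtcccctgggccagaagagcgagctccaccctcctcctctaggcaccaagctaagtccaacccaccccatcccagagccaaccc
Cldn4: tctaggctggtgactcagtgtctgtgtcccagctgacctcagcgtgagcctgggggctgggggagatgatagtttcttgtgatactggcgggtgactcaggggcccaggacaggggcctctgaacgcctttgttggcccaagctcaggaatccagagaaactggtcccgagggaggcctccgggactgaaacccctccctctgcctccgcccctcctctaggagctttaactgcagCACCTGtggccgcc
Krt8: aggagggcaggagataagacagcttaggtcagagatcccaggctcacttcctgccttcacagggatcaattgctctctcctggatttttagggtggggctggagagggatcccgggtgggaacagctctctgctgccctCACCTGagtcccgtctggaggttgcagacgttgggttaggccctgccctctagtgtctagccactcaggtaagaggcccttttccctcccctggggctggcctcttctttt
Krt18: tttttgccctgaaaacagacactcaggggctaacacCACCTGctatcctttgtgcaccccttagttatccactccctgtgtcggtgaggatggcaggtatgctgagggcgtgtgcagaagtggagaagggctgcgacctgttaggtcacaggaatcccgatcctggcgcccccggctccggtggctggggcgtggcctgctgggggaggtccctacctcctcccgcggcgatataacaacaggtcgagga
Of the 10 genes, 9 had such a window (11 windows in all), and the E-box was present in that of 7: Epcam, Krt7, Krt8, Krt18, Cldn4, Cldn7 and Wfdc2. Among all 32536 RefSeq windows of this length, 17.3% held it. The GC box GGGCGG was in the windows of 6 genes against 33.0% of all windows, the AP-1 form TGANTCA only in that of Cldn4 (6.73% of all), and TATAAA (12.3%) and the grainyhead form AACNNGTT (3.62%) in none. Both strands were searched for each, and no other motif was. GENCODE places the start of some genes elsewhere, so 140 bases of the Krt8 window and 36 of the Krt18 window lie inside its gene models. The windows of Krt7, Krt14 and Wfdc2 and 1 of the 2 of Cldn7 lie wholly inside them. A match of letters is a description of sequence, not a bound site.

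In cancer cells of the T cell libraries the genes kept nearly the same order of levels. Wfdc2 was highest and was followed by Krt18, Krt8, Epcam, Cldn4 and Krt7 in both libraries, and Krt14 was lowest. Cldn3, Cldn7 and Krt19 lay between them, and Krt19 stood above Cldn7 in the resistant and below it in the sensitive library. The intervals of Krt19 (124 to 151) and Krt14 (102 to 126) in the sensitive library overlap narrowly, and those of Cldn3 (358 to 404) and Krt19 (329 to 373) in the resistant library overlap as well, as do those of Krt19 and Cldn7 (297 to 339) there. Without the cell with most UMIs of each gene, resistant Krt19 was at 209 and Cldn7 at 307, the order of the sensitive library. In the control and resistant whole tumors Krt18 led, followed by Wfdc2, Krt8, Epcam and Krt7, and Krt19 was lowest.

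**Figure D1:**
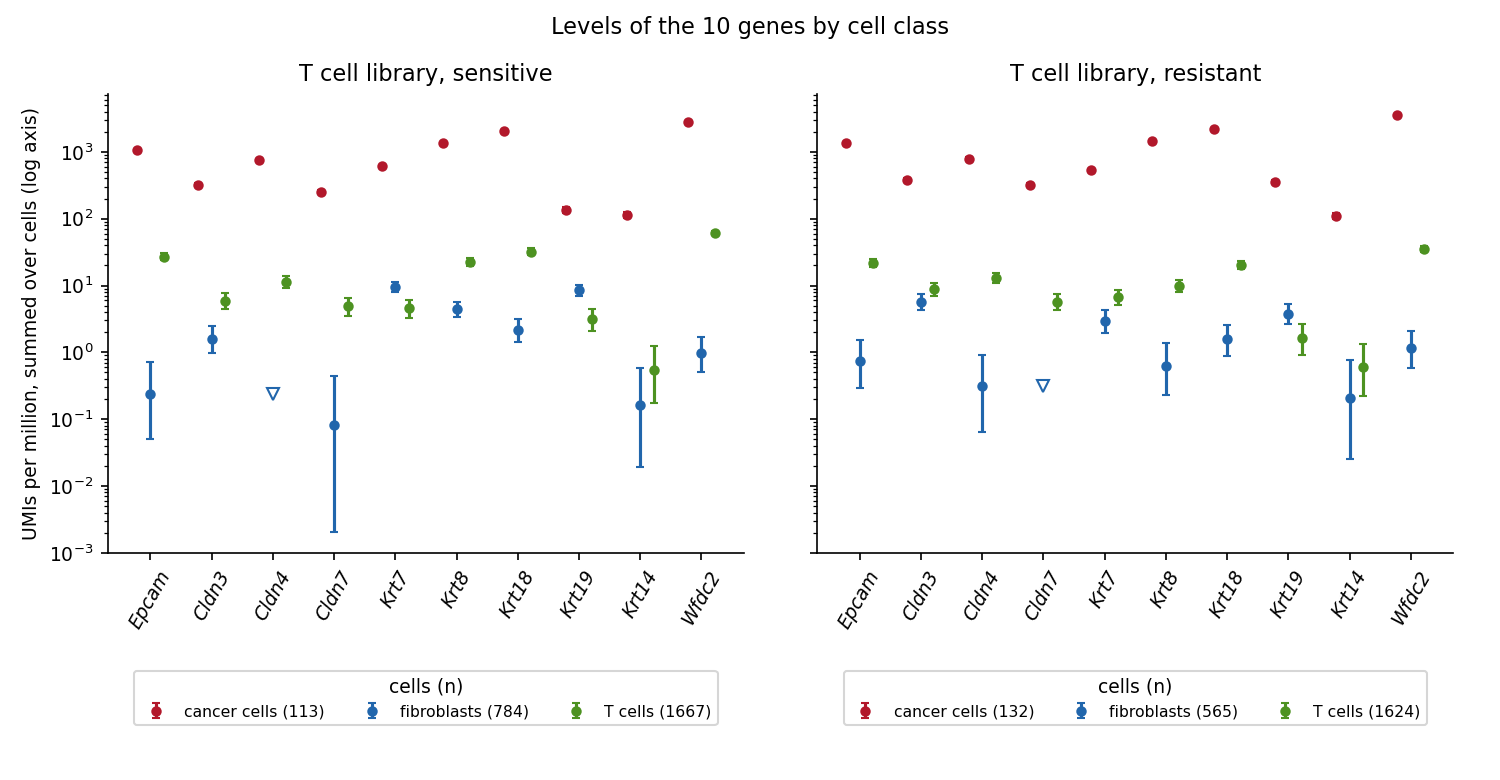
Each point is the level of a gene in CPM (log axis), summed over cancer cells, fibroblasts or T cells of the sensitive (left) and resistant (right) T cell library, with 95% counting intervals; open triangles mark the limit that 0 UMIs allows (3 counts). All 10 genes sit above 100 CPM in cancer cells and below 10 in fibroblasts.

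Among the adhesion and junction genes, Epcam, which codes for a homophilic adhesion protein and is part of the gate, stood at 1080.4 CPM in sensitive and 1346 in resistant T cell libraries. In whole tumors it stood at 655 in the control and 599 in the resistant library, and the 6 sensitive cells held 31 UMIs. The ratio of sensitive to resistant was 0.802 (0.765 to 0.842) in the T cell libraries and 0.946 (0.902 to 0.992) without cells passing both gates. Cldn4, a barrier-forming claudin, was at 749.5 and 793 in the sensitive and resistant T cell libraries, with a ratio of 0.946 (0.891 to 1.00) that turned to 1.12 (1.05 to 1.18) without cells passing both gates. In the control and resistant whole tumors it was at 312 and 258, and it was at 0 UMIs of 38317 in the 6 sensitive cells, which allows a level of up to 78.3. Cldn3, its neighbor, was at 321 and 380.1 in the T cell libraries, and at 149 and 202 in the control and resistant whole tumors. Its T cell library ratio was 0.844 (0.772 to 0.922), and 0.965 (0.882 to 1.06) without those cells. Cldn7, which also forms junctions outside the apical seal, was at 253 and 317 in the T cell libraries, with ratios of 0.797 (0.721 to 0.879) and, without those cells, 0.941 (0.852 to 1.04), and at 149 and 126 in the whole tumors. None of these 4 genes reached a 2-fold difference between the T cell libraries or between the control and resistant whole tumors. In the 6 sensitive whole-tumor cells, which were not part of that comparison, Epcam was at 809 CPM (549.7 to 1148), and leaving out 1 cell gave 389 to 1618 (1 cell held 19 of the 31 UMIs), while Cldn3 and Cldn7, with 2 and 1 UMIs, were at 52.2 (6.32 to 189) and 26.1 (0.661 to 145), below the levels of the other whole tumors but with intervals that overlap theirs.

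The simple keratins Krt18, Krt8 and Krt7 also stayed within 2-fold between the T cell libraries and between the control and resistant whole tumors. Krt18 stood at 2021 CPM in sensitive and 2231 in resistant T cell libraries, and at 2399 and 2200.2 in the control and resistant whole tumors. Its ratio of sensitive to resistant turned from 0.906 (0.874 to 0.939) to 1.06 (1.02 to 1.10) without cells passing both gates. Its partner Krt8 stood at 1367 and 1452 in the T cell libraries and at 1402 and 1157 in those whole tumors, and its ratio turned likewise from 0.941 (0.901 to 0.983) to 1.09 (1.04 to 1.14). Krt7, a type II keratin of ducts and glands, was at 607 and 534 in the T cell libraries and at 453 and 482 in the whole tumors. Its ratio of sensitive to resistant was 1.14 (1.06 to 1.22), one of only 2 above 1 among the 10 genes, and 1.30 (1.21 to 1.39) without cells passing both gates. In the 6 sensitive whole-tumor cells Krt18 was at 1148 (834 to 1542) on 44 UMIs, Krt8 at 444 (258 to 710.4) on 17 and Krt7 at 157 (57.5 to 341) on 6. These levels rest on single cells: without the deepest one, which held 21015 of the 38317 UMIs, they were 1965 (1361 to 2746), 809 (442 to 1358) and 347 (127 to 755), with intervals that overlap those of the other whole tumors, and without the cell of most Krt8 UMIs they were 843, 162 and 97.2. The gate uses Krt8, Krt18 and Epcam, so each was also read in cells gated on the other 2 genes. Among cells gated on the other 2, Krt8 was at 1592 and 1480 in the sensitive and resistant T cell libraries and found in 92 of 95 and 116 of 117 cells. Krt18 was at 2223 and 2269.8, in 92 of 96 and 116 of 117 cells. Epcam was at 1165 and 1352, in 92 of 106 and 116 of 130 cells.

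Krt19, the smallest type I keratin, was the only one of the 10 past 2-fold between the T cell libraries. It was at 137 CPM in sensitive and 351 in resistant T cell libraries, a ratio of 0.390 (0.346 to 0.438), or 2.57-fold lower in the sensitive library, and 0.431 (0.381 to 0.486) without cells passing both gates. A Krt19 UMI was found in 68 of 113 sensitive and 68 of 132 resistant cells, so the share of positive cells was not lower in the sensitive library (60.2% against 51.5%). The resistant UMIs were held by few cells: 1 cell had 410 of 991 UMIs, and 5 cells held 73.7%. Without the cell with most UMIs in each library the ratio was 0.555 (0.484 to 0.637), no longer past 2-fold, and as a mean over cells it was 0.503 (0.57 without the cell of highest level in each library). In whole tumors Krt19 was at 38.3 in the control (19 UMIs) and 42.2 in the resistant library (35 UMIs), and the ratio of 1.10 (0.614 to 2.04) leaves either direction possible. As a mean over cells it was at 139 CPM in the control and 37.0 in the resistant library. Without the cell of highest level in each library these means were 33.2 and 31.5.

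Krt14, the basal keratin, was the lowest of the 10 in the T cell libraries and, with Krt19, the most uneven. It stood at 114 CPM in sensitive and 109 in resistant T cell libraries, but was found in 41 of 113 sensitive cells and in 29 of 132 resistant cells. One resistant cell held 172 of the 309 UMIs, and 5 cells held 85.1%, against 53.7% for the 5 highest sensitive cells. Its ratio of 1.04 (0.886 to 1.22) became 1.87 (1.52 to 2.32) without the highest cell of each library and 1.20 (1.03 to 1.41) without cells passing both gates. As a mean over cells it was 2.86 (170 against 59.4 CPM), where 1 sensitive cell of 6618 UMIs stood at 8915 CPM. Without the cell of highest level in each library the means were 91.5 and 41.9 CPM, a ratio of 2.19. In whole tumors Krt14 was at 135 in the control and 144 in the resistant library, in 14 of 28 and 21 of 43 cells.

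Wfdc2 was at 2822 CPM in sensitive and 3573 in resistant T cell libraries, a ratio of 0.790 (0.767 to 0.813) that moved to 0.933 (0.906 to 0.960) without cells passing both gates. It was at 1700.2 in the control and 1832 in the resistant whole tumor, with a ratio of resistant to control of 1.08 (0.990 to 1.17). The 6 sensitive whole-tumor cells held 75 UMIs, 62 of them in a single cell, without which the level was 751 CPM and not 1957. Those 6 cells had 3 to 6 of the 10 genes each and depths of 889 to 21015 UMIs, and 1 of them, with 71 UMIs of the neutrophil gene S100a9, had neither Epcam nor Wfdc2. They were too few for a ratio.

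**Figure D2:**
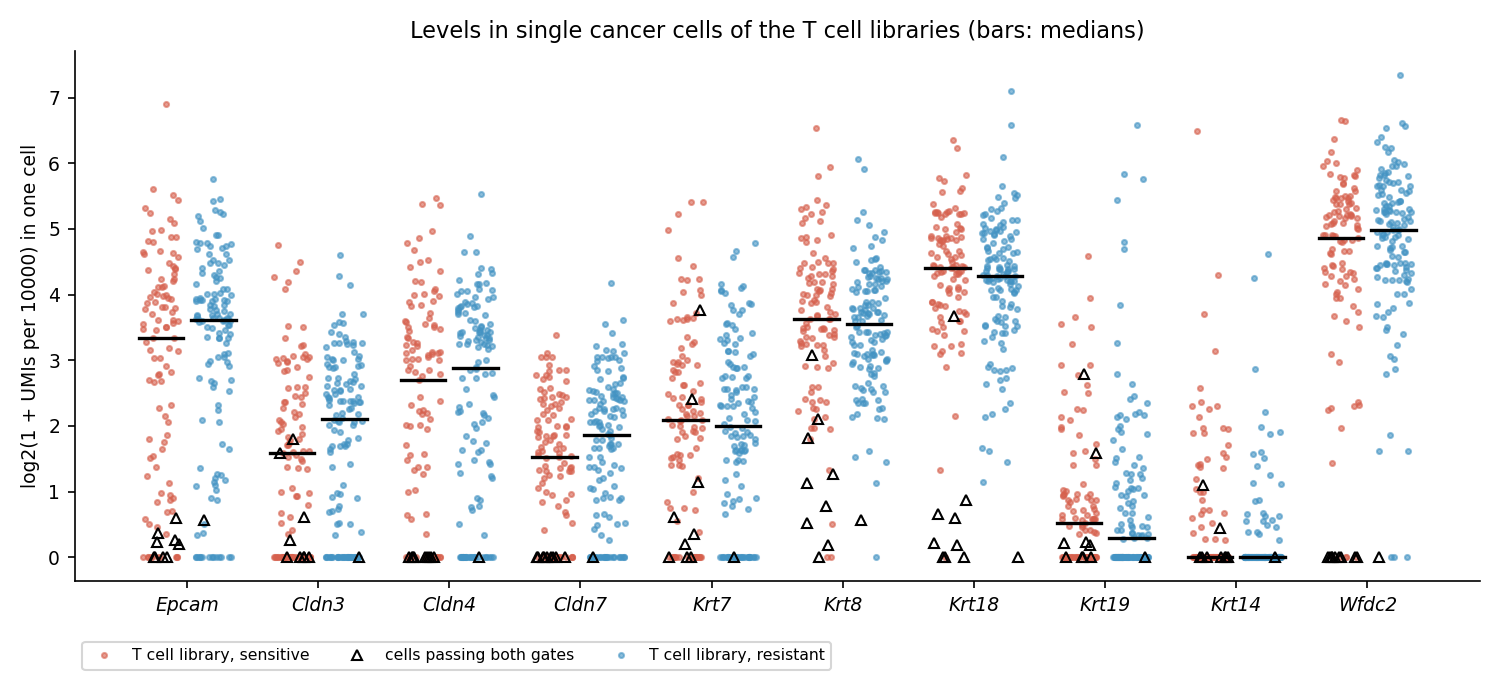
Each point is 1 cancer cell of the sensitive (red) or resistant (blue) T cell library, with its level of each gene as log2(1 + UMIs per 10000); bars are medians over all gated cells and open triangles are cells that also pass the fibroblast gate. Wfdc2 is at 0 in all triangles, and single cells far above the rest carry much of Krt19 in the resistant library.

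Over all 10 genes the median ratio of sensitive to resistant was 0.875, with 2 genes above 1, beside a median of 1.05 across all 5918 genes that reached 100 UMIs in these cells. Without cells passing both gates it was 1.01, with 5 genes above 1, beside 1.06 across 5551 genes. No gene of the 10 was at least 2-fold higher in the sensitive library and 1 was at least 2-fold lower, where 3.5% of all tested genes were higher and 0.49% were lower. In whole tumors, resistant over control, 9 of the 10 genes had enough UMIs to be tested (all but Krt19) and none was past 2-fold in either direction, beside 3.81% of 1626 tested genes at least 2-fold higher and 2.21% at least 2-fold lower. The ratios of the 9 tested ran from 0.826 (0.748 to 0.911) for Krt8 to 1.35 (1.02 to 1.80) for Cldn3, so a 2-fold difference lay outside the interval of each.

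**Figure D3:**
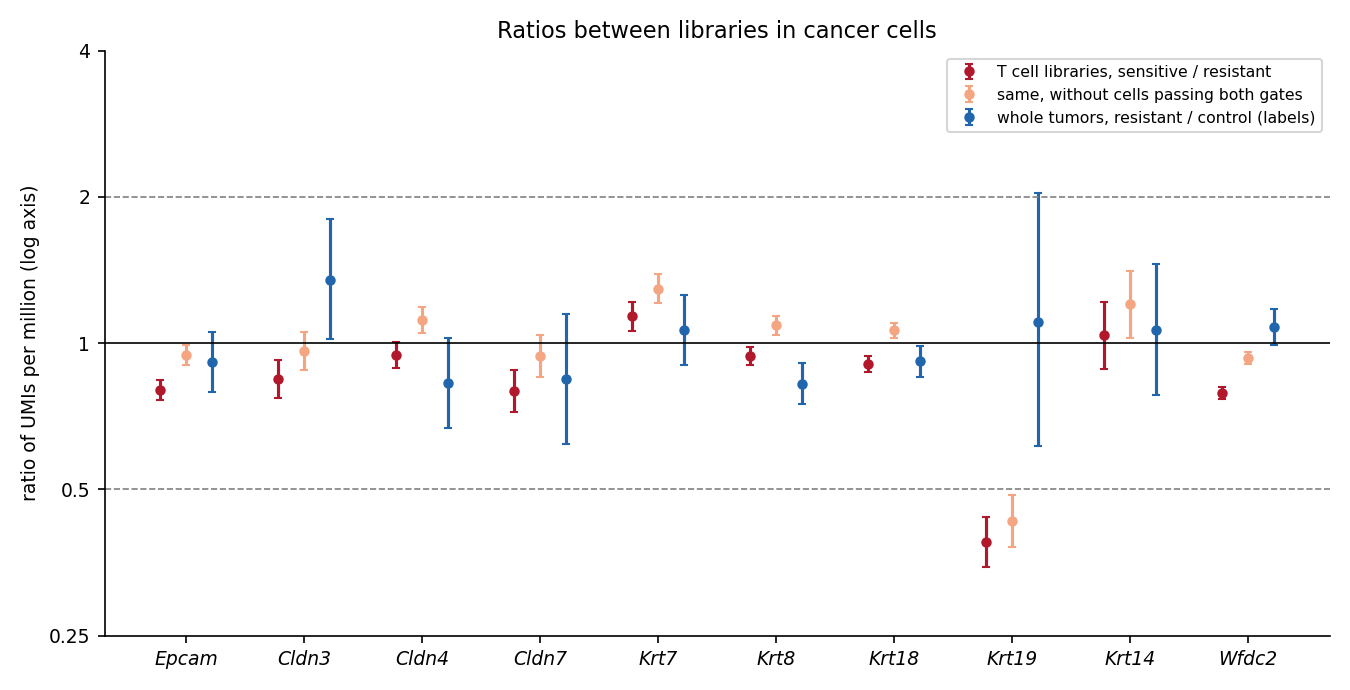
Ratio of CPM in cancer cells (log axis) for each gene: sensitive over resistant T cell library with and without cells passing both gates, and resistant over control whole tumor, with 95% counting intervals and dashed lines at 2-fold. In the T cell libraries Krt19 alone lies past a dashed line, and its whole-tumor ratio is 1.10 with the widest interval.

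Cells of other types can lend RNA to these sums, and marker lists were read in the cancer cells outside the fibroblast gate. Summed macrophage or monocyte markers were at 188 CPM in sensitive and 19.97 in resistant T cell libraries (6 and 5 of 7 genes with a UMI, Csf1r at 0 in both), and from 26.1 to 95.2 in whole tumors. Neutrophil markers were at 1.65 and 6.06 in those libraries. In the control, sensitive and resistant whole tumors they were at 1551, 3471 and 650.4, and there S100a8 and S100a9 lead and neutrophils are the most frequent gated class. Their part in the levels of the 10 genes was not tested. Thy1, the gene of the tag used for depletion but also a gene of T cells and fibroblasts, was at 814 and 507 CPM in cancer cells of the sensitive and resistant T cell libraries, beside 813 and 760.1 in their fibroblasts. In cancer cells of control and resistant whole tumors it was at 2.01 and 3.76 CPM (1 and 3 UMIs), and the 6 sensitive cells had none. Of 10 genes of the normal gland, 3 (the milk protein genes Csn2 and Wap, and Oxtr) were at 0 in cancer cells of both T cell libraries, Prlr had 0 and 264 UMIs, and the remaining 6 had 0 to 33 UMIs in a library.

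Fibroblasts carried little of any of the 10 genes. All 10 were at least 10-fold lower there than in cancer cells in both T cell libraries, where 1.83% of 9284 genes tested (sensitive) and 2.27% of 8468 (resistant) were that much higher in cancer cells. The fibroblast gate leaves out cells with 2 of Epcam, Krt8 and Krt18, so for these 3 genes the difference is partly set by the gate. The 9 sensitive cells that pass both gates count as cancer cells in these folds, and they held 249 UMIs of the 10 genes against 344 in all 784 fibroblasts. Counted among the fibroblasts as well, they took the sensitive fold of the summed genes from 342 to 206, that of Krt8 from 309 to 127, of Krt18 from 929.8 to 383, of Krt14 from 705 to 183, of Cldn3 from 199 to 84.3 and of Epcam from 4474 to 1740, and all 10 genes stayed past 10-fold. Wfdc2, which is not part of the gate, had 12 UMIs in 784 sensitive and 11 UMIs in 565 resistant fibroblasts, against 8156 and 10095 UMIs in cancer cells. That made cancer cells 2922-fold (1672 to 5657) higher in sensitive and 3098-fold (1731 to 6207) higher in resistant samples. Cldn4 was at 0 UMIs in sensitive fibroblasts, at least 3104-fold lower than in cancer cells when 3 counts over all fibroblasts are taken as the limit, and at 3 UMIs in resistant fibroblasts. Cldn7 had 1 UMI in sensitive fibroblasts, with cancer cells 3138-fold (561 to 1.24e+05) higher, and 0 in resistant ones, which were lower by a factor of 1008 or more at the same limit. Krt14, with 2 UMIs in fibroblasts of each library, was 705-fold (194 to 5846) and 522-fold (143 to 4326) higher in cancer cells. Of the gate genes, Krt18 was 929.8-fold (638 to 1412) and 1418-fold (859 to 2536) higher, Krt8 309-fold (237 to 411) and 2309-fold (1059.9 to 6295), and Epcam, at 3 and 7 UMIs in fibroblasts, 4474-fold (1529 to 21704) and 1834-fold (889 to 4566).

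The smallest differences were those of Krt19, Krt7 and Cldn3. Krt19 was 16-fold (12.9 to 20.04) higher in cancer cells than in fibroblasts of the sensitive library and 92.9-fold (66.7 to 133) higher in the resistant one. Krt7 was 63.9-fold (53.0 to 77.6) and 182-fold (125 to 275) higher. Cldn3 was 199-fold (128 to 328) and 67.1-fold (51.1 to 90.0) higher, the reverse order of libraries. Set side by side, fibroblasts had 3.24 times (2.13 to 5.08) the Krt7 and 2.26 times (1.54 to 3.40) the Krt19 level in sensitive as in resistant samples, and 0.284 times (0.161 to 0.483) the Cldn3 level, the last on 20 and 54 UMIs. Krt8 was 7.04 times (3.04 to 20.01) as high on 55 and 6 UMIs, and 1 sensitive cell held 29 of the 55. For Cldn3 and Krt8 these are under the 100 UMIs asked for elsewhere. The median ratio over the 9780 genes tested in fibroblasts was 1.06, and the share of all genes past 2-fold there was not computed. Without the highest cell of each library the Krt7 ratio was 3.01 (1.92 to 4.88), that of Krt19 1.67 (1.06 to 2.69), that of Cldn3 0.180 (0.084 to 0.351) and that of Krt8 4.00 (1.51 to 13.4), and Krt19 was found in a smaller share of sensitive than of resistant fibroblasts (2.68% against 4.07%).

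Most UMIs of fibroblasts were of Krt7 and Krt19 in the sensitive library and of Cldn3, Krt19 and Krt7 in the resistant one. In sensitive fibroblasts Krt7 had 118 UMIs in 53 cells and Krt19 had 106 UMIs in 21 cells, together with 55 of Krt8 in 7 cells, 27 of Krt18 in 7 cells and 20 of Cldn3 in 9 cells. In resistant fibroblasts Cldn3 had 54 UMIs in 26 cells, Krt19 had 36 in 23 cells and Krt7 had 28 in 23 cells. Over all 10 genes, of which the gates fix the 3 gate genes in part, Krt7 and Krt19 made up 34.3% and 30.8% of the 10 genes' UMIs in sensitive fibroblasts, but 6.25% and 1.36% in sensitive cancer cells outside the fibroblast gate. Cldn3 made up 33.3% in resistant fibroblasts and 3.43% in resistant cancer cells. Wfdc2, which led cancer cells at 30.1% and 32.2%, made up 3.49% and 6.79% in sensitive and resistant fibroblasts. Over the 7 genes outside the gate, Krt7 and Krt19 made up 45.6% and 40.9% in sensitive fibroblasts and 11.8% and 2.58% in sensitive cancer cells, and Cldn3 made up 40.3% in resistant fibroblasts and 6.28% in resistant cancer cells. On that base Wfdc2 was at 4.63% and 8.21% in fibroblasts and 56.9% and 59.0% in cancer cells. Few cells held much of this: 1 sensitive fibroblast had 43 UMIs of Krt19 and 1 had 29 of the 55 UMIs of Krt8. Of the 53 sensitive fibroblasts with Krt7, 2 also had Wfdc2, and of the 23 resistant ones none did.

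T cells were taken as the background for these genes, with a limit for Epcam given below. Of 1667 sensitive and 1624 resistant T cells, 5 and 8 had at least 3 of the 10 genes, and these held 1447 and 1017 UMIs against 156 and 206 in all other T cells. In those other T cells Krt7 had 2 and 5 UMIs, Krt19 had 1 and 3, and Cldn3 had 3 and 3 in the sensitive and resistant library. Krt7 was at 9.50 CPM in sensitive fibroblasts and 0.219 in these T cells, and Krt19 at 8.53 and 0.110. In the resistant library, Cldn3 was at 5.66 in fibroblasts and 0.306 in these T cells. Wfdc2 went the other way, at 0.966 in sensitive fibroblasts and 1.86 in these T cells, and at 1.15 and 3.98 in the resistant library. The limit of 3 genes was set after the values had been seen and uses the genes compared, so these levels are a description. With fibroblasts held to the same limit (780 and 565 cells), Krt7 was at 9.04 CPM and Krt19 at 4.16 in the sensitive library, and the resistant values did not change. Cldn3 was then 2.73-fold (0.721 to 15.2) above T cells in the sensitive library, an interval that holds 1. Against all T cells, only Krt19 stayed higher in fibroblasts of both libraries (2.72-fold, 1.79 to 4.26, and 2.34-fold, 1.27 to 4.52), Krt7 did so in the sensitive library alone (2.09-fold, 1.46 to 3.05), and Cldn3 was lower in both. The resistant Krt19 ratio rests on 36 and 16 UMIs and the sensitive Cldn3 ratio on 20 and 54, under 100. Without the fibroblast of most Krt19 UMIs in each library, a choice made after seeing the data, the Krt19 ratios were 1.62 (1.03 to 2.61) and 1.89 (0.994 to 3.73). Without the highest cell of both classes they were 2.47 (1.46 to 4.37) and 3.02 (1.43 to 6.95), and those of Cldn3 were 0.543 (0.226 to 1.27) and 1.29 (0.822 to 2.03), so that the Cldn3 order was not kept in the resistant library. Epcam alone made up 53.2% and 37.4% of the 10 genes' UMIs in T cells with under 3 of the genes, and was found in 59 of 1662 sensitive and 69 of 1616 resistant ones. It was at 9.09 and 7.86 CPM in them, against 0.244 and 0.734 in fibroblasts held to the same limit. For Epcam, T cells are therefore not a low background, and the cause was not tested.

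Read per cell at a common depth of 2000 UMIs, a gene outside the gate was found in 2.67% (1.64 to 4.10) of 748 sensitive fibroblasts and 3.05% (1.78 to 4.83) of 558 resistant ones. The T cell shares were 1.10% (0.643 to 1.76) of 1542 and 2.19% (1.52 to 3.04) of 1555 cells. Without thinning, at median depths of 13184 and 13620 UMIs in fibroblasts and 4224 and 4798 in T cells, they were 11.3% and 13.8% of fibroblasts and 1.98% and 4.19% of T cells. At 2000 UMIs the intervals of fibroblasts and T cells overlap in both libraries, and no order is read from these shares. Fibroblasts with Krt7 or Krt19 were deeper (median 19100 UMIs, 71 cells, sensitive) than those without (12733 UMIs, 713 cells). In them Wt1 was at 43.1 CPM against 15.8 in the others, and Upk3b, a mesothelial surface gene, was at 0 in both. Msln was at 1.75 against 0.187, on only 3 UMIs in 2 cells and 2 UMIs in 2 cells. In the resistant library Wt1 was at 3.95 against 6.33 and the other 3 mesothelial genes were at 0. The part of such cells in the keratin UMIs was not tested.

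**Figure D4:**
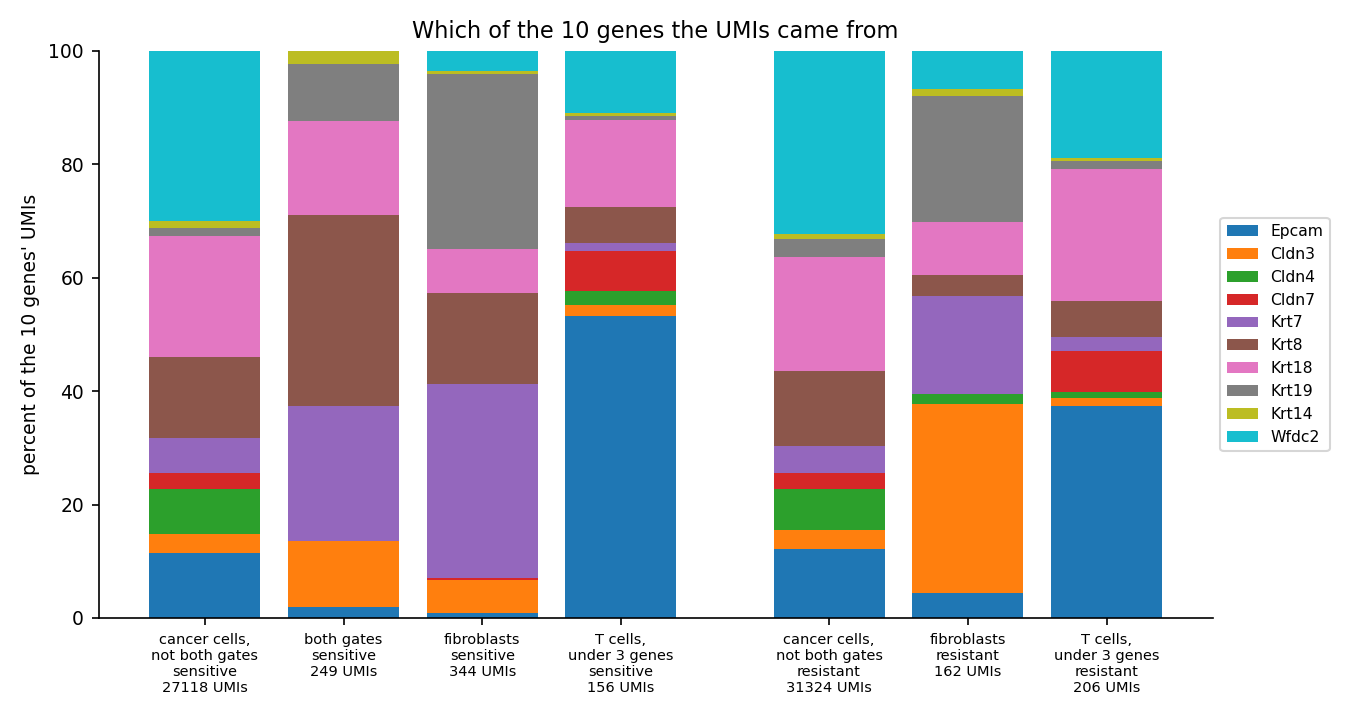
Stacked bars give the percent of the 10 genes' UMIs that each gene made up, in cancer cells outside the fibroblast gate, cells passing both gates, fibroblasts, and T cells with under 3 of the genes, by T cell library (UMI totals under the bars; the 1 resistant cell passing both gates is left out). The gates fix the gate genes Epcam, Krt8 and Krt18 in part. Krt7 and Krt19 take 34.3% and 30.8% in sensitive fibroblasts, Cldn3 takes 33.3% in resistant ones, and Epcam takes 53.2% and 37.4% in T cells.

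In whole tumors the 7 control fibroblasts held 34 UMIs of Krt19 in 3 cells, 4 of Krt7 in 2 cells and 4 of Wfdc2 in 3 cells, with the other 7 genes at 0. Of the 34 Krt19 UMIs, 25 were in 1 cell. At 268 CPM (186 to 375), the Krt19 level of these few cells was above the 38.3 (23.0 to 59.8) of the control cancer cells, the only such case seen among the 10 genes in any library with both classes. The 3 resistant whole-tumor fibroblasts held 1 UMI of Krt18 and none of the others. There 0 UMIs allows up to 126.8 CPM, above Krt19 (42.2) and Cldn7 (125.5) in cancer cells, so a case in these genes could not be seen.

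Most cancer cells had UMIs of many of the 10 genes, of which the gate itself asks for 2 and bars 2 in fibroblasts. With all UMIs, the median cell had 8 of them in both T cell libraries, and 83 of 113 sensitive and 100 of 132 resistant cells had at least 7. Over the 7 genes outside the gate the median was 5 in both, 93 of 113 and 115 of 132 cells had at least 3 of them, and 2 of 784 and 0 of 565 fibroblasts did, at the depths given above. Thinned to 2000 UMIs the median of all 10 was 6 in both, over 106 and 126 cells deep enough. The control and resistant whole-tumor cells had a median of 8 with all UMIs, and of 4 and 3 at 1000 UMIs. Among fibroblasts at 2000 UMIs, 0 of 748 sensitive and 0 of 558 resistant cells had 3 or more.

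Pairs of genes were described by Spearman correlation across cancer cells of a library, with no p-value since cells of 1 library are not replicates and share its depth range and gate. With all UMIs the 6 pairs among Epcam, Cldn3, Cldn4 and Cldn7 had a median of 0.60 over 113 sensitive cells and 0.59 over 132 resistant cells. The closest was Cldn3 with Cldn4 at 0.72 in the sensitive and Cldn3 with Cldn7 at 0.64 in the resistant library, where Cldn3 with Cldn4 was at 0.63. The 6 pairs among Krt7, Krt8, Krt18 and Krt19 had medians of 0.46 and 0.38, with Krt8 and Krt18 closest at 0.69 and 0.66. The 16 pairs between these sets had medians of 0.27 and 0.27, and Krt8 with Cldn3 was at -0.11 and 0.09 (-0.25 and 0.07 without cells passing both gates). Wfdc2 was at 0.50 and 0.40 with Epcam and at 0.16 and 0.20 with Krt8. Krt14 was closest to Krt7, at 0.55 and 0.35.

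At 2000 UMIs per cell all 3 medians were lower. The medians were 0.33 and 0.25 for the junction pairs, 0.20 and 0.28 for the simple keratin pairs, and 0.11 and 0.14 between them. Without cells passing both gates, which also redraws the thinning, they were 0.27 and 0.30, 0.19 and 0.29, and 0.08 and 0.16, and the order of junction and keratin pairs in the resistant library was not kept. In all gated cells Krt8 with Krt18 was at 0.55 and 0.36, and Cldn3 with Cldn4 at 0.54 and 0.34. Without cells passing both gates and with all UMIs, the medians were 0.53 and 0.58, 0.42 and 0.37, and 0.18 and 0.26 in the same order. The grouping by role was set after the correlations had been seen. In whole tumors, over 28 control and 43 resistant cells, the junction pairs had medians of 0.23 and 0.30 with all UMIs and the keratin pairs 0.39 and 0.42, and at 1000 UMIs none of these medians was above 0.23.

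**Figure D5:**
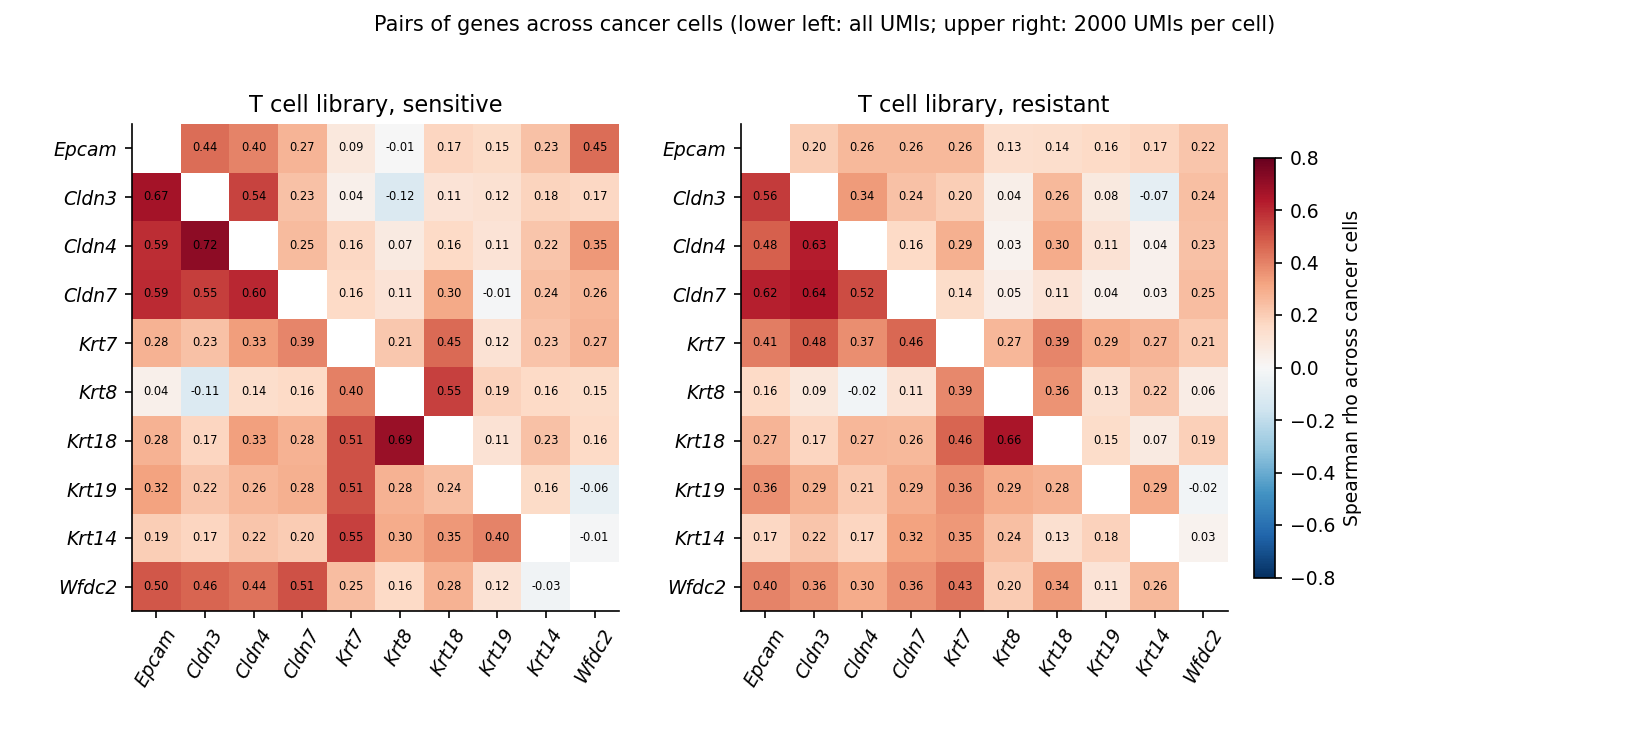
Each square is the Spearman correlation of 2 genes across cancer cells of the sensitive (left) or resistant (right) T cell library, with all UMIs below the diagonal and at 2000 UMIs per cell above it. With all UMIs, a block of Epcam and the claudins (medians 0.60 and 0.59) and the pair of Krt8 and Krt18 (0.69 and 0.66) stand out, and both are paler above the diagonal.

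The genes whose level across single cancer cells was most like the mean of the 7 genes outside the gate were ranked among 949 genes (the 7 left out), by the lower of the correlations in the 2 T cell libraries. Epcam led at 0.41 and Krt18 followed at 0.37, both of the gate. Then came Anxa3 (an annexin, 0.28), Clu (the chaperone clusterin, 0.27), Ly6a (0.27), Cd9 (a tetraspanin, 0.24), Ier2 (an immediate early gene, 0.23), Hsp90ab1 (a chaperone, 0.21), Cd74 (the invariant chain of MHC class II, 0.21) and Rpn2 (0.20), beside a median of -0.05 over all ranked genes. Correlations this weak in thinned counts are not a finding about single genes. Ly6a was higher in fibroblasts (4659 and 5643 CPM) than in cancer cells (783 and 613).

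Related genes were read from lists of other claudins, junction and adhesion genes, other keratins, epithelial transcription factors, mesenchymal genes, secreted mucosal proteins, and normal gland, skin and mesothelial genes. Of 102 genes, 37 had at least 100 UMIs in cancer cells of the T cell libraries, and 2 were at least 2-fold higher and 2 at least 2-fold lower in the sensitive library, beside the 3.5% and 0.49% of all tested genes given above. Without cells passing both gates, 0 were higher and 3 lower, and for that comparison no share of all genes was computed. All 18 junction and adhesion genes tested, among them the cadherin Cdh1 (49.8 and 60.2 CPM) and the protease inhibitor Spint2 (412 and 440.2), stayed within 2-fold, with a median ratio of 0.901, and 1.04 without cells passing both gates. The 4 tested epithelial transcription and splicing factors, Esrp1, Klf5, Trps1 and Tfap2a, also stayed within 2-fold. None of the other claudins reached 100 UMIs, and of the other keratins only Krt10 did. Below that minimum, and named after their values were seen, Krt17 had 87 UMIs in sensitive and 5 in resistant cells, a ratio of 17.01 (7.02 to 53.7), and 20.1 without cells passing both gates. Just 5 sensitive cells held all 87, and 1 of them 67. Krt15 had 57 UMIs in 14 sensitive cells and 18 in 9 resistant cells, a ratio of 3.10 (1.80 to 5.59), and 1 sensitive cell held 28. Of 8 mesenchymal genes tested 2 were past 2-fold, and of 4 secreted proteins 1 was.

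Of the genes past 2-fold, the matrix gene Sparc and the secreted Tgfbi were higher in the sensitive library, at 1546 and 64.0 CPM against 274 and 6.02. The 9 cells passing both gates held 4046 of the 4469 Sparc UMIs and 175 of the 185 Tgfbi UMIs. Without them Sparc had a ratio of 1.02 (0.889 to 1.16) and Tgfbi of 0.679 (0.278 to 1.57), neither of them past 2-fold. Prlr, the prolactin receptor, had 264 UMIs in the resistant library and 0 in 113 sensitive cells, where it was at least 90.0-fold lower when 3 counts over the group are taken as the limit. Just 4 resistant cells held all 264 UMIs, and 1 of them 133. Wfdc18, which belongs to the same domain family as Wfdc2, was at 15.9 against 50.6, with 2 sensitive and 4 resistant cells holding all UMIs and 1 resistant cell 133 of 143. Slpi, a secreted protease inhibitor, had a ratio of 0.683 (0.651 to 0.716) in all gated cells and 0.493 (0.466 to 0.522) without cells passing both gates, in which it was at 2429 CPM.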

How the data were processed

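The deposited files hold raw UMI counts per feature and barcode, which the authors made with Cell Ranger on mouse build mm10 and did not normalize. Per the file headers, the T cell libraries were made with version 6.0.0 and the whole-tumor libraries with version 3.0.1. Kept barcodes had 500 or more genes and up to 10% mitochondrial UMIs in T cell libraries, and 200 or more genes and up to 20% in whole tumors (their 37 mitochondrial features were all at 0 UMIs, so that limit removed no barcode). Barcodes with the highest Scrublet scores (scanpy 1.11.5), 0.8% per 1000 barcodes, were removed from the T cell libraries as putative doublets (112 sensitive, 159 resistant) and none from the whole tumors. The libraries held 537293 to 35908799 UMIs. T cells had Ptprc, at least 2 of Cd3d, Cd3e and Cd3g, and no fibroblast gene at 2 or more UMIs.

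Counts were summed per class and library. Ratios were given exact conditional binomial, levels exact Poisson and shares Clopper-Pearson intervals at 95% (scipy 1.17.1), which cover counting error only. With 1 library per group no test was made. Differences of 2-fold between libraries, or 10-fold between cell classes, were named, among genes with at least 100 UMIs over both sides, and background shares were computed by the same rule over all genes. Thinning drew 2000 (T cell libraries) or 1000 (whole tumors) UMIs per cell without replacement and left out shallower cells. Correlations used log(1 + UMIs per 10000). Named besides the 10 genes were related genes past 2-fold with at least 100 UMIs, and the 10 genes most correlated with the mean of the 7 genes outside the gate, among genes seen in at least 20% of cells. Cdh1, Spint2 and the factors named within 2-fold were picked as examples after their values were seen. The ratios, intervals and thinning were tested on simulated data. The members and lists were chosen with earlier results of these data known. Promoter windows were RefSeq's, matched by symbol.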

Additional observations from a re-analysis of the deposited data

Results flagged for a closer look

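Barcodes removed by the filters still carried these genes. In the sensitive T cell library 36 removed barcodes passed the cancer cell gate (median 4278 UMIs, 7.02% mitochondrial), and in the resistant library 81 did (median 1768 UMIs, 15.5% mitochondrial), 59 of them over the mitochondrial limit. The kept cancer cells had median mitochondrial shares of 3.30% and 4.72%. These barcodes stood out because they lie outside the cells compared and pass a gate on the genes described; no removed whole-tumor barcode passed it.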

How the results depend on the processing

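Of 423 values under other settings, 329 stayed within the counting interval, 1.5 times the count or, for correlation medians, a tolerance, and 94 moved. Some could not move: a 1.5-fold rule leaves ratios as they are, and the control whole tumor had no cell passing both gates. Turns of direction were counted only for ratios already past the fold, and none was found. These were Krt19 between the T cell libraries and cancer cell to fibroblast ratios of 16-fold or more, so this says little. Krt18, Krt8 and Cldn4, within 2-fold, did cross 1 between the T cell libraries without cells passing both gates. The summed ratio of the 10 genes, sensitive over resistant, was 0.854, and it was 0.991 with a gate of all 3 genes, 0.9995 without cells passing both gates, 0.961 as a mean over cells, 0.873 with the filter of 200 genes and 20% mitochondrial UMIs and 0.814 relative to the median ratio. As a mean over cells, 1 gene (Krt14) was past 2-fold higher and 0 lower, and without the highest cell of each gene, an alternative chosen after seeing the data, 0 were lower. The share of all genes past 2-fold was computed for neither setting, in T cell libraries or whole tumors, so these counts have no reference. With no minimum of UMIs 17.5% of genes were higher and 12.1% lower, and at 1.5-fold 8.57% and 2.77%. The whole-tumor summed ratio of 0.952 became 0.997 with at least 5 UMIs in the gate and 0.880 as a mean over cells, where 1 gene (Krt19) was past 2-fold lower: its ratio turned from 1.10 to 0.267. Krt19 had 54 UMIs there, under the minimum of 100, and 1 control cell of 668 UMIs stood at 2994 CPM; without the cell of highest level in each library, an alternative also chosen after seeing the data, the ratio of means was 0.949. The summed cancer cell to fibroblast ratio of 342 in the sensitive library was 411 with all 3 gate genes, 403 without cells passing both gates, 499 as a mean over cells and 206 with such cells among the fibroblasts. At 1000 UMIs the shares with a gene outside the gate were 1.55% and 1.42% of fibroblasts and 0.602% and 0.924% of T cells, without thinning 11.3%, 13.8%, 1.98% and 4.19%, and 0.586% in sensitive T cells with under 3 of the genes. Junction pair medians were 0.17 (sensitive, 1000 UMIs), 0.60 and 0.59 (all UMIs), and keratin pairs 0.46 (sensitive, all UMIs), with 0.27 and 0.27 between them. In the control whole tumor the median number of genes was 2 at 500 UMIs and 8 with all UMIs, the pairs between sets were at -0.066 at 500 UMIs, and with all UMIs junction and keratin pairs were at 0.23 and 0.39. In the resistant whole tumor the median number was 8 with all UMIs, junction pairs were at -0.11 at 500 UMIs, 0.30 with all UMIs and -0.066 without the cell passing both gates (which redraws the thinning of every cell), and with all UMIs the keratin pairs were at 0.42 and those between at 0.28. Related genes 2-fold higher numbered 0 without cells passing both gates. Apart from what the alternatives themselves change, the cause was not tested. No paired analysis was possible because each group has 1 library.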
